A study of Homo sapiens with 8 samples.

Results

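The genes described here encode the proteins of the nuclear lamina and the chromatin-bound HMGB proteins whose levels are commonly followed in senescent cells. They are LMNA, LMNB1, LMNB2, LBR, TMPO, HMGB1, HMGB2 and HMGB3, chosen by name, and all 8 were found among the 18216 genes of the deposited table and passed the filter on low values. RNA came from IMR90, a line of primary human lung fibroblasts at passage 28, grown at 3% oxygen. The 4 groups of 2 libraries each were a DMSO control and Nutlin-3a at 3 µg/mL for 6, 9 or 12 h. Nutlin-3a keeps the ubiquitin ligase MDM2 from binding p53, which then accumulates and activates its target genes. One DMSO pair of unstated culture time served every Nutlin-3a time, so time in the compound and time in culture cannot be told apart. No label says that replicates came from separate cultures, so a p-value here reflects the spread between these libraries alone, and that spread may be technical.

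The lamina is a meshwork of intermediate filaments under the inner nuclear membrane. A-type lamins (lamin A and lamin C, splice products of LMNA) and B-type lamins (LMNB1 and LMNB2) build it. LBR, a membrane protein that also has sterol reductase activity, and TMPO, which encodes the LAP2 proteins, tie peripheral chromatin to it. HMGB1, HMGB2 and HMGB3 bend DNA through a pair of HMG boxes and end in an acidic tail, and HMGB1 also acts as an alarm signal once outside the cell. Loss of lamin B1, loss of HMGB2 from chromatin and release of HMGB1 from the nucleus are widely used marks of senescent fibroblasts. Gene counts do not separate the splice forms of LMNA or TMPO.

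Each library held between 21.9 and 33.6 M reads assigned to genes. Reads behind a single value of these 8 genes ranged from 495 for LMNB1 to 41732 for LMNA, both at 12 h. The p53 targets MDM2 and CDKN1A were higher under Nutlin-3a, with log2 changes at 12 h of 3.13 ± 0.06 and 3.90 ± 0.04 (limma, adjusted p = 7.55e-19 and 1.05e-22). Of 10 fibroblast markers all were in the table, with summed normalized counts of 926912 to 934120 in DMSO and 1107120 to 1122580 at 12 h. Most of that sum was COL1A1 and COL1A2, with means of 467683 and 245564 in DMSO. Their log2 changes at 12 h were 0.32 ± 0.05 and 0.34 ± 0.05, while PDGFRA fell (−0.44 ± 0.05). Of the 10, 4 rose and 2 fell at 12 h, where 18.5 and 21.4% of all tested genes did. With quantile normalization 1 rose and 2 fell. Markers of other cell types were summed in the same way. The epithelial sum (5 of 8 markers in the table) was 276 to 296 in DMSO and 362 to 398 at 12 h, most of it CLDN4, which rose at 12 h (0.46 ± 0.09, limma adjusted p = 0.000502). The immune sum (4 of 6) was 748 to 903 in DMSO and 911 to 961 at 12 h, nearly all of it CD68, which was not called at 12 h (0.19 ± 0.08) but was called there with quantile normalization (0.29) or without the first DMSO library (0.33). The immune markers PTPRC and CD14 had means under 5 in DMSO and at 12 h. The endothelial sum (5 of 6) was 1971 to 2075 in DMSO and 1436 to 1505 at 12 h, nearly all of it TEK, which fell at 12 h (−0.46 ± 0.06, adjusted p = 2.20e-06). The smooth muscle or pericyte sum (6 of 6) was 13311 to 14329 in DMSO and 13844 to 14496 at 12 h. Within it NOTCH3 rose at 12 h (0.34 ± 0.05) and CNN1 fell (−0.28 ± 0.06), but without an intensity trend in the fit 0 of the 6 fell. The part of these markers in the results below was not tested.

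Upstream sequences of 7 of the 8 genes were matched by symbol in RefSeq (build GRCh38.p14), with 14 start sites in all. HMGB2 had no entry. The 250 bases before a start site are shown for LMNB1 and TMPO, which fell steeply, for HMGB3, which fell less, and for LMNA, which rose, so that genes of differing behaviour can be read side by side. Capitals mark matches to CCAAT, the box bound by NF-Y (ATTGG on the other strand), to TTTGAA, the CHR element of cell-cycle promoters (TTCAAA on the other strand), or to the E2F sites TTTCCCGC, TTTGGCGC, TTTCGCGC and TTTGCCGC (either strand). The windows lie on the plus strand of the intervals chr5:126776886-126777135 (LMNB1), chr12:98515323-98515572 (TMPO), chrX:150983085-150983334 (HMGB3) and chr1:156082323-156082572 (LMNA), each ending just before the first exon.
LMNB1: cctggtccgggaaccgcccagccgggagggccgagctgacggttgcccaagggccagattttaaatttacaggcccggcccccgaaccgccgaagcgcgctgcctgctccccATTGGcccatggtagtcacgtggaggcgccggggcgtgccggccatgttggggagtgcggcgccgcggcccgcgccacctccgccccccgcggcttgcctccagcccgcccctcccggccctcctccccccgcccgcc
TMPO: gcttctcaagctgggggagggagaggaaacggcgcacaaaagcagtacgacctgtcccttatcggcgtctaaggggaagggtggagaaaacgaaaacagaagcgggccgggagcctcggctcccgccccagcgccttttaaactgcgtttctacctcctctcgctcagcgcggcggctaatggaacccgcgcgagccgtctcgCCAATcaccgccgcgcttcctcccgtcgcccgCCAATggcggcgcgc
HMGB3: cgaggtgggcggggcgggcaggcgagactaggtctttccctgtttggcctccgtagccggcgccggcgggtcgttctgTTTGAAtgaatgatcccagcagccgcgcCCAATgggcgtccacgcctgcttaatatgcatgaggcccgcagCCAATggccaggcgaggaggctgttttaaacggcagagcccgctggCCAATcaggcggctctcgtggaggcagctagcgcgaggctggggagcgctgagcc
LMNA: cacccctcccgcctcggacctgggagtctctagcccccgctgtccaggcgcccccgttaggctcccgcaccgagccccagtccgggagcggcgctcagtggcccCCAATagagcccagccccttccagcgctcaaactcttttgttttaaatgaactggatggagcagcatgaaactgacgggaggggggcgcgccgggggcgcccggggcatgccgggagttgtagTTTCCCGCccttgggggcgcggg

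These 4 windows are ones with matches. Of the 14 windows 6 held none of the motifs searched, namely the other LMNB1 start, the other 2 LMNA starts, the other HMGB3 start, the LBR start and 1 of 3 HMGB1 starts. TMPO held 2 CCAAT boxes, at 47 and 15 bases before this start, and HMGB3 held 3 beside a TTTGAA. Searched in the full windows of 300 bases (250 before and 50 after a start), CCAAT stood in 7 of the 14 windows of these genes (50%) against 34.6% of all 35116 windows. TTTGAA stood in 3 of 14 (21.4%), belonging to LMNB2, HMGB1 and HMGB3, against 15.2%. An E2F site stood in 1 of 14, that of LMNA, against 3.31%, and the p53 half-site by its consensus in 0 of 14 against 6.63%. Windows of a gene with several starts can overlap, as those of TMPO do. Matches describe letters only, and CCAAT stood both in LMNA, which rose, and in genes that fell.

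After Nutlin-3a, 7 of the 8 genes fell and LMNA rose, at 6, 9 and 12 h alike. A gene is said to have risen or fallen where limma's adjusted p over all genes was under 0.05. All 8 were thus called at each time, against 36.7% of all tested genes at 6 h, 35.3% at 9 h and 39.9% at 12 h. Genes that fell made up 20.6, 19.1 and 21.4% of those tested, and genes that rose 16.1, 16.2 and 18.5%. At 12 h these were 2603 genes that rose and 3007 that fell, and with quantile normalization 3369 and 2482. The median log2 change of the 8 was −0.47, −0.90 and −1.22, where the median of all tested genes was −0.01, 0.01 and 0.01. In these bulk libraries, fewer cells of a type and less RNA per cell cannot be told apart. The 3 comparisons share their DMSO libraries and are given side by side for that reason. Pairs of libraries that do not overlap are described below gene by gene. The share of all genes with such pairs was not counted, so such separation is given as description only. It was also seen for LMNA and HMGB1 from 9 to 12 h, where neither was called. With 2 libraries per group, separation alone cannot bring an exact permutation p below 0.333.

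LMNA, the A-type lamin gene, was the member that rose. Its normalized counts were 23835 and 24058 in DMSO, 30103 and 30676 at 6 h, 31715 and 32058 at 9 h, and 34155 and 34458 at 12 h. No group overlapped another, and each later pair lay above the earlier one. The log2 change was 0.34 ± 0.04 at 6 h, 0.41 ± 0.04 at 9 h and 0.52 ± 0.04 at 12 h, a 1.43-fold rise (limma, adjusted p = 1.53e-06, 9.30e-08 and 2.25e-09). From 6 to 12 h it rose by a further 0.17 ± 0.04 (adjusted p = 0.00270), while the steps from 6 to 9 h and from 9 to 12 h were not called. Most of the LMNA difference was already present at 6 h, with 66.3% of its 12 h log2 change.

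LMNB1, which encodes lamin B1, fell furthest of the 8. Normalized counts were 3709 and 3718 in DMSO, 1489.7 and 1575 at 6 h, 761 and 679.7 at 9 h, and 497 and 515 at 12 h. The pairs were widely separated at each step. The log2 change was −1.28 ± 0.06, −2.37 ± 0.06 and −2.87 ± 0.06, or 2.42-, 5.16- and 7.33-fold lower than DMSO (limma, adjusted p = 4.24e-12, 1.58e-16 and 4.03e-18). At 12 h only 13 of the 14074 tested genes had a more negative log2 change, against 73 at 6 h.

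LMNB2, the gene of the other B-type lamin, fell less than LMNB1. It stood at 10541 and 10164 in DMSO, 7407 and 7648 at 6 h, 5575 and 5459 at 9 h, and 4199 and 4353 at 12 h. Again no pair overlapped the next. The log2 changes were −0.46 ± 0.05, −0.91 ± 0.05 and −1.28 ± 0.05, which is 2.42-fold lower at 12 h (limma, adjusted p = 9.48e-08, 1.60e-12 and 3.43e-15). LMNB2 at 12 h had thus fallen about as far as LMNB1 had at 6 h.

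**Figure D1:**
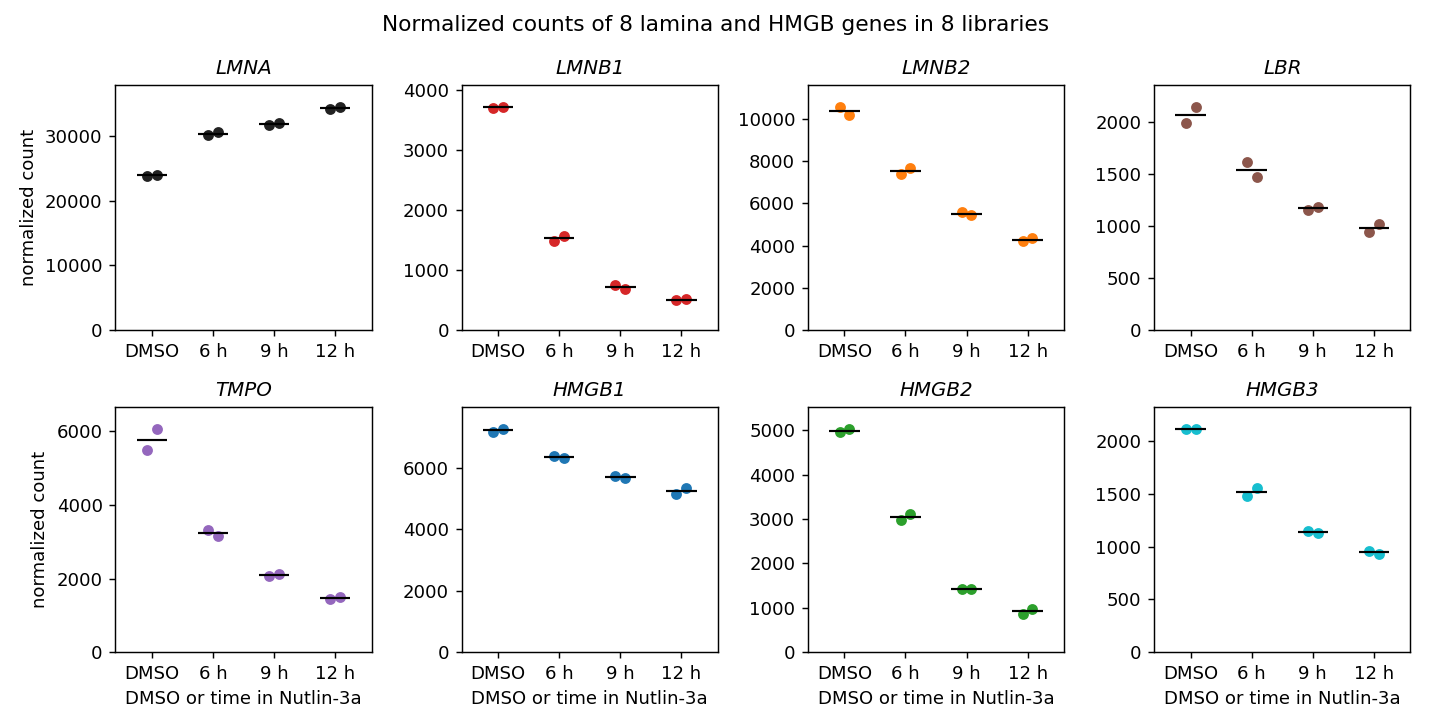
Normalized counts (y axes, each from 0) of the 8 genes in the 2 libraries of each group (x axes, DMSO or hours in Nutlin-3a), with bars at group means. LMNA climbs from about 23947 to 34306, the other 7 genes descend at each time, and LMNB1 ends at a mean of 506.

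TMPO and LBR, which tie chromatin to the lamina, fell at each time. TMPO had normalized counts of 5494 and 6059 in DMSO, 3317 and 3163 at 6 h, 2068 and 2125 at 9 h, and 1444 and 1504 at 12 h. Its DMSO libraries lay farther apart than those of the other 7 genes in relative terms (SD 6.92% of the mean), yet well above every Nutlin-3a library. The log2 changes were −0.83 ± 0.06, −1.46 ± 0.06 and −1.97 ± 0.06, or 3.91-fold lower at 12 h (limma, adjusted p = 2.60e-10, 1.95e-14 and 8.77e-17).

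LBR, the lamin B receptor, was counted at 1991 and 2140.0 in DMSO, 1612 and 1466 at 6 h, 1157 and 1184 at 9 h, and 941 and 1021 at 12 h. Libraries of different groups did not overlap. The log2 change was −0.42 ± 0.06, −0.82 ± 0.06 and −1.07 ± 0.06, or 2.10-fold lower at 12 h (limma, adjusted p = 2.50e-05, 2.02e-09 and 1.94e-11). Of the enzymes that share the sterol pathway with LBR, TM7SF2, its close relative in sterol reduction, fell at 6 h (−0.80 ± 0.22), a call that ended without the first 6 h library (−0.74) or with DESeq2 (−0.82). At 12 h it was not called (0.17 ± 0.22), and neither were CYP51A1 (0.02 ± 0.06) and DHCR7 (−0.13 ± 0.06), the last of which was called without the second DMSO library (−0.18).

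TMPO-AS1, a long non-coding RNA on the opposite strand at the TMPO start, fell as well. Its normalized counts were 119 and 105 in DMSO, 62.5 and 58.6 at 6 h, 51.8 and 32.9 at 9 h, and 29.5 and 16.6 at 12 h. The log2 change at 12 h was −2.29 ± 0.25 (limma, adjusted p = 2.69e-07). At 6 h it was −0.88 ± 0.25, and leaving out the second 6 h library (−0.83) ended that call. The library kit marks the strand, but no source used here says whether counting used it, and TMPO and TMPO-AS1 reads over shared bases cannot be told apart. Of 18 listed look-alike and antisense entries, HMGB pseudogenes among them, TMPO-AS1 alone was in the table. Reads aligning in several places form an entry of their own, and how many of them belong to HMGB genes cannot be told.

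HMGB2, which marks cycling cells and helps shape chromatin, fell most among the HMGB genes. Normalized counts were 4959 and 5018 in DMSO, 2968 and 3106 at 6 h, 1420.0 and 1425 at 9 h, and 858 and 980.2 at 12 h. Each pair lay clear of the others. The log2 changes were −0.72 ± 0.06, −1.81 ± 0.06 and −2.44 ± 0.06, or 1.64-, 3.51- and 5.44-fold lower (limma, adjusted p = 7.84e-09, 2.59e-15 and 1.43e-17). At 6 h HMGB2 had covered 29.3% of its 12 h log2 change, the smallest share of the 8, and at 9 h 74.1%.

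HMGB3 was intermediate. Its counts were 2113 and 2112 in DMSO, 1481 and 1554 at 6 h, 1149 and 1129 at 9 h, and 961 and 932 at 12 h. The DMSO libraries were nearly identical and no group overlapped another. The log2 changes were −0.48 ± 0.06, −0.89 ± 0.06 and −1.16 ± 0.06, or 2.23-fold lower at 12 h (limma, adjusted p = 1.14e-06, 6.76e-11 and 6.26e-13).

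HMGB1, a DNA-bending protein found in nearly all nuclei, fell least of the 7 genes that fell at 6, 9 and 12 h. It stood at 7184 and 7259 in DMSO, 6375 and 6329.5 at 6 h, 5727 and 5663 at 9 h, and 5142 and 5337 at 12 h. The pairs separated at every time although the differences were small. The log2 changes were −0.18 ± 0.04, −0.34 ± 0.04 and −0.46 ± 0.04, or 1.38-fold lower at 12 h (limma, adjusted p = 0.00250, 3.14e-06 and 3.61e-08). RNA levels say nothing of where the HMGB1 protein lies.

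**Figure D2:**
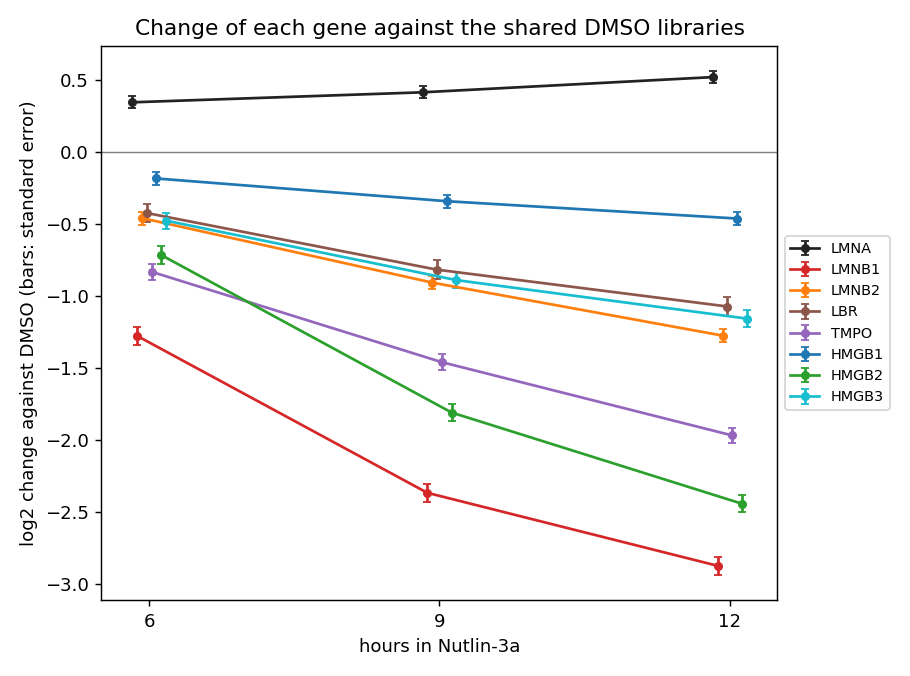
Log2 change against DMSO (y axis, bars are standard errors) at 6, 9 and 12 h of Nutlin-3a (x axis) for each gene, with all points sharing the same DMSO pair. LMNA lies above 0 and reaches 0.52. LMNB1 and HMGB2 end lowest, at −2.87 and −2.44, and HMGB1 stays nearest to 0 among the genes that fell.

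Differences between Nutlin-3a times use no DMSO mean, although the DMSO libraries enter the shared estimate of the spread. From 6 to 12 h, 7 genes fell and LMNA rose, where 31.5% of tested genes were called, 17.1% falling and 14.4% rising. HMGB2 fell by 1.73 ± 0.06 and LMNB1 by 1.60 ± 0.06 on the log2 scale over these hours, TMPO by 1.14 ± 0.06 and LMNB2 by 0.82 ± 0.05 (limma, adjusted p = 4.23e-14, 2.15e-13, 2.83e-12 and 2.11e-11). Between 6 and 9 h, 7 of 8 fell and 0 rose (9.90% of all genes fell and 8.52% rose, 18.4% in all), with equal steps of −1.09 for LMNB1 and for HMGB2. Between 9 and 12 h, 6 of 8 fell and 0 rose (2.92% of all genes fell and 1.08% rose), and the step was −0.51 ± 0.06 for LMNB1, −0.63 ± 0.06 for HMGB2 and −0.51 ± 0.06 for TMPO. The 9 to 12 h calls of LBR (−0.26) and HMGB3 (−0.27) were lost without either 9 h or either 12 h library, at −0.31 to −0.197 and −0.29 to −0.25. The 6 to 9 h call of HMGB1 (−0.16) was lost without either 6 h or either 9 h library (−0.17 to −0.15). Most of the 12 h change of LMNB1 was present at 9 h (82.4%), with 44.4% present at 6 h. For LMNB2, LBR, TMPO, HMGB1 and HMGB3 the shares at 6 h ranged from 36.03 to 42.3%.

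Ratios taken within a library do not depend on the scaling between libraries. LMNB1 reads per LMNA read (normalized counts, expressed as a percentage) averaged 15.5% in DMSO, 5.04% at 6 h, 2.26% at 9 h and 1.47% at 12 h. Since counts are not per length, only changes of such ratios are read. In log2 units the ratio changed by −3.39 between DMSO and 12 h. LMNB2 over LMNA went from 43.2 to 24.8, 17.3 and 12.5%, a log2 change of −1.79. The A-type to B-type balance of lamin transcripts thus moved toward LMNA in every Nutlin-3a library. The B-type lamins also diverged from each other, since LMNB1 over LMNB2 went from 35.9 to 20.4, 13.05 and 11.8%.

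Among the HMGB genes, HMGB2 over HMGB1 went from 69.1% in DMSO to 47.8, 24.98 and 17.5%, a log2 change of −1.98 at 12 h. HMGB3 over HMGB1 moved less, from 29.3 to 23.9, 20.002 and 18.1% (−0.69). HMGB2 over HMGB3 went from 236% to 200.1, 125 and 97.2% (−1.28). The 6 ratios within a family were tested by an exact permutation test of the F statistic over the 4 groups (n = 2 each). For each ratio the exact permutation p was 0.00952, the smallest this design can give, and the value adjusted over the 6 pairs was the same. A comparison of only 2 groups of 2 cannot go below an exact p of 0.333.

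**Figure D3:**
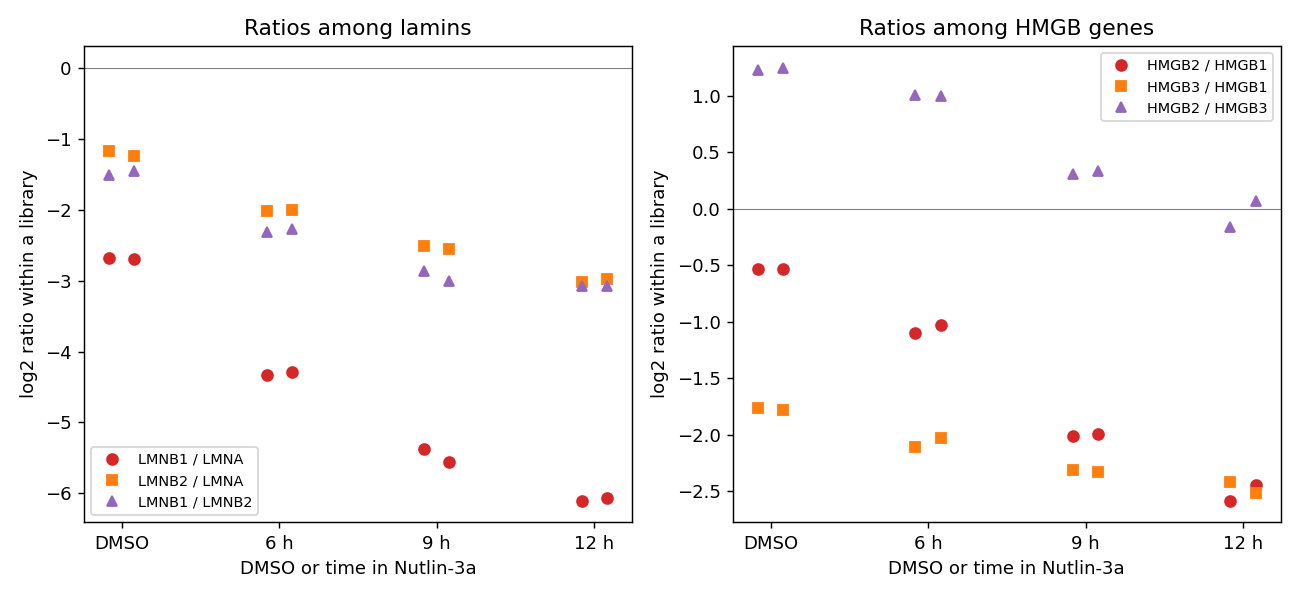
Log2 ratio of 2 genes of a family within each library (y axis) by group (x axis, 2 points per group), for lamins on the left and HMGB genes on the right. LMNB1 over LMNA drops from −2.69 to −6.08, and HMGB2 over HMGB3 from 1.24 to −0.05.

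Levels of different genes were set side by side per kb of exon (GENCODE 29, merged exons of coding transcripts, which may differ from the annotation the authors counted on). Merged exons ran from 1918 bases for HMGB2 to 7353 for HMGB1, whose normalized counts in DMSO averaged 4989 and 7222. The places of genes in this order depend on these lengths. A gene whose transcripts are shorter than its merged exons is placed too low. In DMSO the order was LMNA (5692 ± 37.4 normalized counts per kb), HMGB2 (2601 ± 21.6), LMNB2 (2216 ± 57.1), LMNB1 (1250.4 ± 2.11), HMGB1 (982 ± 7.22), TMPO (803 ± 55.5), HMGB3 (563.97 ± 0.208) and LBR (530.3 ± 27.1; SD, n = 2 for each). At 12 h LMNA (8155 ± 50.9) still led, followed by LMNB2 (915 ± 23.3), HMGB1 (713 ± 18.7) and HMGB2 (479 ± 45.2). HMGB3 (253 ± 5.38) and LBR (252 ± 14.5) overlapped there, as they did at 6 and 9 h, and TMPO (205 ± 5.89) and LMNB1 (170.4 ± 4.36) came last. LMNB1 thus went from the fourth to the eighth place, and HMGB2 from the second to the fourth. At 6 h the per-kb levels of LMNB2 (1586 to 1637) and HMGB2 (1548 to 1619) overlapped.

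Partners of the lamina were mixed. The 19 tested genes were chiefly those of lamin-binding membrane proteins, linker proteins and nuclear pore basket proteins, with some of other kinds. Of these 19, 5, 7 and 10 fell at 6, 9 and 12 h and 1, 2 and 1 rose. Their medians were −0.04, −0.08 and −0.16. Over all tested genes 20.6, 19.1 and 21.4% fell and 16.1, 16.2 and 18.5% rose. The counts of this list and of the lists below are to be read beside these shares. SYNE2, which encodes the linker nesprin-2, had log2 changes of −0.43, −0.97 and −1.5 at 6, 9 and 12 h (SE 0.07, limma adjusted p at 12 h = 2.11e-13). TMEM201, an inner membrane protein, changed by −1.34 ± 0.08 at 12 h and NUP153, a pore basket protein that binds lamins, by −0.77 ± 0.05. SYNE1, which encodes nesprin-1, went the other way at 12 h with 0.30 ± 0.06. The genes of emerin (EMD, −0.22 ± 0.06), SUN1 (−0.23 ± 0.05) and SUN2 (−0.29 ± 0.04) fell at 12 h by small amounts, and leaving out the second 12 h library (−0.15) ended the call of EMD, as did quantile normalization (−0.16). LEMD2 (0.05 ± 0.05) and LEMD3 (−0.12 ± 0.07), which also encode inner membrane proteins that bind chromatin, were not called at 12 h, although LEMD3 was without the first DMSO library (−0.21).

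Genes listed for the farnesylation and processing of prelamin A and the B-type lamins, not all of them enzymes, moved little as a group. Of 6 tested, 1 fell at each time and 2, 0 and 0 rose, with medians of 0.13, 0.03 and −0.02. The member that fell was ICMT, the methyltransferase of the farnesylated C-terminus, with a log2 change of −0.61 ± 0.05 at 12 h (limma, adjusted p = 7.07e-10). ZMPSTE24, the protease that cleaves prelamin A, was not called at 12 h (0.11 ± 0.05), but was called there with TMM scaling (0.12), quantile normalization (0.14), edgeR (0.13) or without the second DMSO library (0.14). Of 9 kinase, cyclin and sterol genes linked to lamins or LBR, 5, 3 and 3 fell and 2 rose at each time. The mitotic kinase gene CDK1 (−1.81 ± 0.08) and its cyclins CCNB1 (−1.66 ± 0.06) and CCNB2 (−1.58 ± 0.06) were the ones that fell at 12 h, while PRKCD (0.44 ± 0.08) and the sterol enzyme MSMO1 (0.25 ± 0.07) rose. Leaving out the second 12 h library (0.197) ended the 12 h call of MSMO1, as did a fit without an intensity trend (0.25). The 6 h call of MSMO1 ended without a trend or with only the 2 groups compared (0.21 in both). It also ended without the first DMSO library (0.12) or the first 6 h library (0.13).

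Heterochromatin genes, among them the HP1 genes whose products bind LBR, fell with the B-type lamins. Of 14 tested, 9 fell at each time and 0 rose, with medians of −0.25, −0.48 and −0.55. UHRF1 (−2.45 ± 0.07), HELLS (−2.40 ± 0.09) and DNMT1 (−1.23 ± 0.05), which act in the upkeep of DNA methylation, had the smallest p at 12 h. The HP1 genes CBX5 (−0.98 ± 0.06), CBX1 (−0.60 ± 0.05) and CBX3 (−0.51 ± 0.07) also fell (limma, adjusted p = 8.35e-12, 1.11e-08 and 2.56e-06). Of 16 tested genes of other HMG-box, HMGA and HMGN proteins, 7, 9 and 9 fell and 3, 1 and 1 rose. Their median log2 changes were small, at −0.14, −0.18 and −0.17. At 12 h the genes that fell included the histone chaperone subunit SSRP1 (−0.66 ± 0.05), the nucleosome binder HMGN2 (−0.67 ± 0.05) and UBTF, a factor of RNA polymerase I (−0.55 ± 0.05). HMGA2, an architectural protein of proliferating and senescent chromatin, rose by 0.35 ± 0.05.

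**Figure D4:**
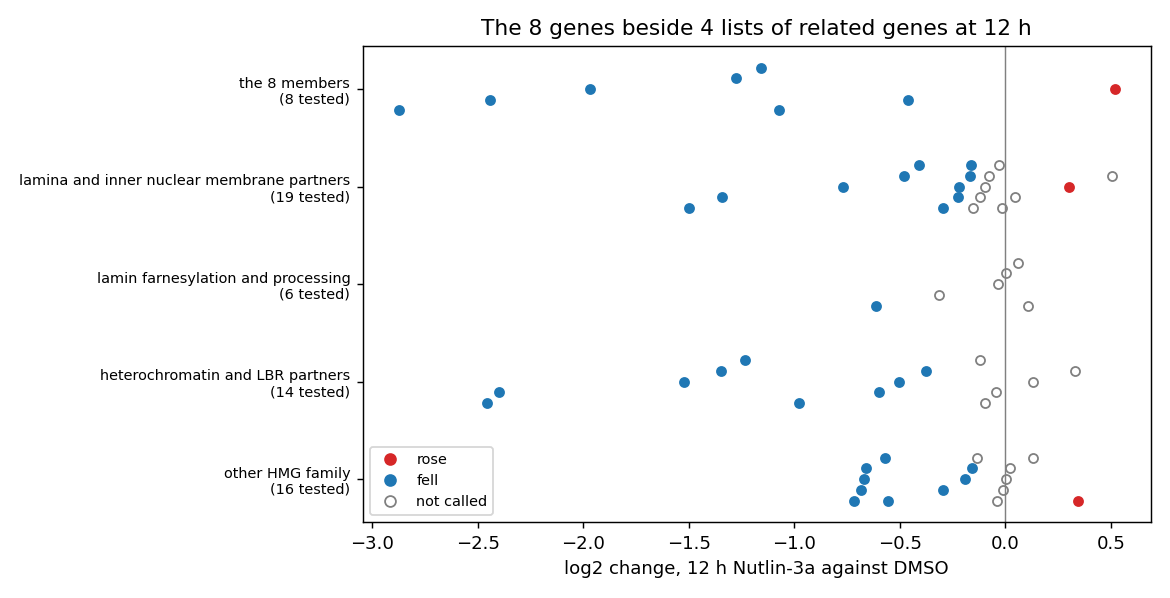
Log2 change at 12 h against DMSO (x axis) for the 8 genes and 4 lists of related genes (rows, vertical offsets only separate points). Filled points were called and open points were not. The heterochromatin list reaches −2.45 (UHRF1), and the single risen point of the HMG list is HMGA2.

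Markers of cycling cells moved in the same direction as the 7 genes that fell. MKI67, the gene of Ki-67, changed by −0.85, −1.68 and −2.52 at 6, 9 and 12 h (SE 0.05), CCNA2 (cyclin A2) by −0.95, −1.80 and −2.38 (SE 0.06) and TOP2A, a DNA topoisomerase, by −0.57, −1.18 and −1.88 (SE 0.05). Their part in the change of the lamin and HMGB genes was not tested. CDKN2A, the gene of the senescence-linked inhibitor p16, was not called at any time (0.06, −0.0040 and −0.12, SE 0.08). CDKN2B, another inhibitor gene, rose at each time (0.69, 0.43 and 0.27, SE 0.09). Of 14 genes listed for arrest and senescence, 4, 4 and 3 rose and 8 fell at each time. The genes that fell included MKI67, CCNA2 and TOP2A, so this count in part repeats their fall. Those that rose at 12 h were CDKN2B and the treatment checks MDM2 and CDKN1A, whose rise is likewise repeated. Without an intensity trend 2 rather than 3 rose at 12 h.

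Secreted factors of senescent cells were mixed at these times. Of 12 tested, 6, 5 and 5 rose and 4, 3 and 4 fell, with medians of 0.04, 0.07 and 0.097. The chemokines CXCL8 (−1.05, −1.04 and −1.15, SE 0.16) and CCL2 (−0.81, −0.84 and −0.67, SE 0.09) fell. IL6 changed by 1.42, 0.77 and 0.45 (SE 0.12), and leaving out the first 12 h library (0.40) ended its call at 12 h, as did DESeq2 (0.46). Of 9 listed genes for receptors and partners of extracellular HMGB1, 3 had values high enough to test. Of those 3, 1 fell and 0 rose at each time, with medians of −0.09, −0.14 and 0.10, but not the same gene throughout. The chemokine gene CXCL12 fell at 6 and 9 h (−0.28 and −0.19) and was not called at 12 h (0.10), where quantile normalization called it as risen (0.17). Its 9 h call ended with quantile normalization (−0.13) or without the second 9 h library (−0.15). Without a trend 0 of the 3 were called at 9 and 12 h. MYD88, an adaptor of Toll-like receptors, fell at 12 h (−0.22 ± 0.07), a call lost without the first DMSO library (−0.15) or the second 12 h library (−0.15), or with quantile normalization (−0.15).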

How the data were processed

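PolyA RNA of 8 IMR90 libraries was analysed. Per the submitters' processing notes the tools were STAR and DESeq2 and the build was hg19. No source used here names the counter, strand setting or gene models. The authors deposited gene counts divided by a size factor per library, a normalized signal, and tables with log2 fold changes, a Wald score and p-values. Every value was a whole multiple of the value of 1 read (100% within 1e-06), so reads were recovered. Entries naming no gene (28.2 to 29.1% of reads) were left out. Tests used limma 3.58.1 (R 4.3.3) with a variance trend on log2(normalized count + 1) over 14074 genes with at least 10 in at least 2 libraries, with Benjamini-Hochberg adjustment over all of them. It was tested on simulated data. Fold changes on this scale understate changes of low genes. Ratios within a library were tested by exact permutation. edgeR 4.0.16 and DESeq2 1.42.0 served as alternatives. Members and gene lists were chosen with earlier results of these data known. Named beside the members were, per list of related genes (marker lists apart), up to 3 genes with the smallest p among those called at 12 h and up to 2 called genes going against the majority, plus chosen checks. Some genes of the lists are not reported here. IL6, CDKN2A, CDKN2B, TEK, PTPRC, CD14, CD68, CLDN4, COL1A1, COL1A2, PDGFRA, NOTCH3, CNN1, CXCL12, LEMD2, LEMD3, EMD, SUN1, SUN2, CBX1, CBX3, CBX5, ZMPSTE24, TM7SF2, DHCR7 and CYP51A1 fall outside that rule and were named after their values were seen.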

Additional observations from a re-analysis of the deposited data

Results flagged for a closer look

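The change against DMSO differed between 12 and 6 h for all 8 genes by limma's direct test of the 2 groups. The difference in log2 change was 0.17 for LMNA, −1.60 for LMNB1, −0.82 for LMNB2, −0.65 for LBR, −1.14 for TMPO, −0.28 for HMGB1, −1.73 for HMGB2 and −0.68 for HMGB3. In this comparison 31.5% of all tested genes were called. Groups of 2 are too small for a check of single libraries that stand apart.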

How the results depend on the processing

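All 24 log2 changes of the 8 genes against DMSO kept their direction and call in 504 of 504 values under other pseudocounts, filters, scalings, variance models, tests and the removal of each library. The 8 calls from 6 to 12 h held in 160 of 160. For the steps from 6 to 9 h and from 9 to 12 h, 6 and 18 of 160 calls changed. The number called ran from 6 to 7 and from 4 to 8, both when each library was left out and under the other alternatives. Without an intensity trend HMGB1 (adjusted p = 0.0851) lost its 6 to 9 h call, and LBR (0.240) and HMGB3 (0.0809) their 9 to 12 h calls. With quantile normalization HMGB1 (0.0700) and LBR (0.0582) did. LMNA and HMGB1 gained 9 to 12 h calls with only the 2 groups compared (0.00914 and 0.0165) or without either DMSO library, and HMGB1 also with group weights (0.0382). LMNA, the gene that rose, lay between 0.41 and 0.54 at 12 h over all scalings and alternatives. Of 2832 values of 45 other genes, 2757 were counted as unchanged, 59 lost a call and 16 gained one. Among values called in the main fit 0 reversed direction. A value not called in the main fit that changed sign was counted as unchanged. Without a trend, 5 rather than 10 genes of the HMG list were called at 6 h. Counts over all genes for 9 to 12 h ranged from 174 without a trend to 1387 with only the 2 groups compared, against 563, and from 6 to 9 h from 1337 to 3933, against 2592. Without the second 12 h library 2931 genes were called from 6 to 12 h, against 4431. With 12 h minus DMSO ratios, leaving out 1 library gave −3.41 to −3.37 for LMNB1 over LMNA and −1.40 to −1.17 for HMGB2 over HMGB3. The labels do not say that replicate numbers pair libraries, and same-numbered deviations correlated between −0.15 and 0.09 over pairs of groups. With a replicate block the numbers called were 8, 8 and 8 against DMSO, 7, 6 and 8 between times, and the 6 ratios had an adjusted exact p of 0.0417, the smallest that fit allows, with LMNB1 over LMNA at −3.39.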

Other observations

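Genes whose log2 values over the 8 libraries ran most like those of LMNB1, HMGB2 and LMNA were sought among 11453 genes with a mean of at least 50. The correlations are descriptions over libraries that share 4 group means. For LMNB1 they were PSRC1 (Pearson r = 0.9991), ATAD2 (0.9986), the condensin gene NCAPH (0.9981), CKAP2 (0.9976) and the helicase gene MCM6 (0.9973). For HMGB2 they were GAS2L3 (0.9996), TRA2B (0.9987), the spindle gene ASPM (0.9978), the kinetochore gene KNSTRN (0.9973) and SRSF7 (0.9967). TRA2B and SRSF7, which encode splicing regulators, had smaller changes at 12 h (−0.68 and −0.87) than HMGB2. For LMNA they were ANXA4 (0.995), YBX3 (0.992), FAM210B (0.991), SMIM3 (0.991) and SPATA18 (0.989), whose log2 changes at 12 h ran from 0.45 for SMIM3 to 2.67 for SPATA18.

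LMNB1 and HMGB2 parted at 6 h. The log2 ratio of LMNB1 to HMGB2 was −0.42 and −0.43 in the DMSO libraries, −0.99 and −0.98 at 6 h, −0.90 and −1.07 at 9 h, and −0.79 and −0.93 at 12 h. Nutlin-3a libraries of different times overlapped in this ratio, and each lay below both DMSO libraries. This pair was chosen after its values were seen and was not tested.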
